A study of Rattus norvegicus with 9 samples.

Results

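The 33 genes described here encode the hepatic urea cycle and the breakdown of amino acids in the rat liver. They were chosen by name and pathway from the 40154 gene rows of each library, and comprise 7 genes of the urea cycle, 6 of glutamine, glutamate and transamination, 4 of tyrosine breakdown, 5 of tryptophan breakdown, 4 of histidine breakdown, 5 of methionine and homocysteine metabolism, and 2 of lysine and proline breakdown. RNA of whole liver was sequenced from 9 samples of wild type Sprague-Dawley rats aged 5 months, 3 in each of 3 groups. The normal livers came from rats given neither carbon tetrachloride (CCl4), a hepatotoxin, nor transplanted cells. The PBS livers came from rats with cirrhosis that were injected with phosphate-buffered saline. The HepLPC livers came from rats with cirrhosis that were injected with rat HepLPCs, progenitor-like cells derived from hepatocytes. Because the normal rats had neither the injury nor an injection, effects of injury and of injection cannot be told apart in comparisons with them. The labels do not say that replicate numbers stand for separate animals, so the p-values reflect only how far these samples scatter, which may be technical.

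The urea cycle, divided between mitochondrion and cytosol of the hepatocyte, turns ammonia and the nitrogen of aspartate into urea. The amino groups reach it through transaminases and glutamate dehydrogenase, while dedicated pathways dismantle the carbon skeletons of tyrosine, tryptophan, histidine, methionine, lysine and proline. Many of these enzymes are nearly confined to hepatocytes, and several, such as tyrosine aminotransferase, are known to respond to glucagon, glucocorticoids and protein intake. In bulk tissue, fewer cells of a type and less RNA per cell cannot be told apart.

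Levels are given as RPKM, a read count scaled by gene length and library depth. Recovered depth ranged from 17.4 to 21.8 megareads per library. The member with the fewest reads in any library had 287, so counting error was small against the spread between samples. Differences are log2 fold changes, the difference of mean log2(RPKM + 1), from 1 limma model over the 11124 genes that reached 1 RPKM in a minimum of 3 libraries, and a gene is called changed at a Benjamini-Hochberg adjusted p under 0.05. All 33 members passed this filter. PBS library 1 and HepLPC library 2 stood apart from the others by gene length, with shorter genes high and longer genes low. Each gene's deviation from the mean of the library's own group was correlated with gene length. The Spearman correlation was -0.564 and -0.528 in these, against -0.157 to 0.423 in the other 7. Deviations within a group sum to 0, so positive values in the other PBS and HepLPC libraries are partly built in. Results that rest on these libraries are given with and without them.

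The labelled tissue carried its markers in every library. Cps1 lay between 481 and 672 RPKM and Agxt between 15.9 and 45.3 RPKM. The 8 other hepatocyte markers made up 14.6 to 17.8% of all RPKM in normal, 14.4 to 15.6% in PBS and 15.1 to 16.9% in HepLPC livers, and 0 of the 8 were called in any of the 3 comparisons. Genes marking cholangiocytes, stellate cells and macrophages had higher sums in the PBS livers, while endothelial and lymphocyte sums overlapped with normal. Cholangiocyte markers summed to 0.00149 to 0.00177% of RPKM in normal, 0.00804 to 0.0319% in PBS and 0.00153 to 0.00346% in HepLPC livers. Of the 7, 6 could be tested, and all 6 were called higher in PBS than in normal and lower in HepLPC than in PBS livers. Krt7, a defining duct keratin, was the one not tested, and it was at 0 in the third normal library. The osteopontin gene Spp1 was at 0 in the first normal library and had 69.5 RPKM in the second PBS library. Stellate cell and myofibroblast markers summed to 0.00453 to 0.00525% in normal, 0.0116 to 0.0207% in PBS and 0.00679 to 0.0107% in HepLPC livers. Of these, 4 of 7 were called higher in PBS than in normal livers. Macrophage markers summed to 0.0207 to 0.0262%, 0.0418 to 0.0602% and 0.0234 to 0.0337% in the same order, with 1 of 7 (Lyz2) called higher in PBS livers. Endothelial markers summed to 0.0106 to 0.0119% in normal and 0.0105 to 0.0144% in PBS livers, with 1 of 6 called higher. Lymphocyte markers summed to 0.00087 to 0.00122% in normal and 0.0012 to 0.00154% in PBS livers, with 0 of the 2 tested called. Over all genes tested, 10.4% were called higher in PBS than in normal livers. The marker shifts run alongside the member differences described below, and their part in them was not tested.

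Promoters are shown for 3 members: the only member called changed (Agxt), the first enzyme of the urea cycle (Cps1), and a tryptophan enzyme (Kmo) that shares a motif with Cps1. Cps1 and Kmo were chosen for display after the motif search. RefSeq sequences of the rat assembly GRCr8, 250 bases before the annotated start, are printed 5′ to 3′ on the plus strand, on which all 3 genes lie. Capitals mark the letters CAAAGTCCA, a form of the element bound by the hepatocyte factor HNF4, read here on the reverse strand.
Agxt, chr9:101122543-101122792: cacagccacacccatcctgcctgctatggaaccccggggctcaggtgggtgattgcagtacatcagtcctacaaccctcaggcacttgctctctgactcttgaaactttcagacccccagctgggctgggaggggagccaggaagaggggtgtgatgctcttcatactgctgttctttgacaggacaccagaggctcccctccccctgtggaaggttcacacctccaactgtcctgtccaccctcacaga
Cps1, chr9:76063613-76063862: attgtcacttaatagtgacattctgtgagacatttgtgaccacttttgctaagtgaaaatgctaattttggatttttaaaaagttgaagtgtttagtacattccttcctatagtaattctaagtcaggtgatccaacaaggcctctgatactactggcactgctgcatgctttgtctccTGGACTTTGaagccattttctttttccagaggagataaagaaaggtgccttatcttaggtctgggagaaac
Kmo, chr13:90089271-90089520: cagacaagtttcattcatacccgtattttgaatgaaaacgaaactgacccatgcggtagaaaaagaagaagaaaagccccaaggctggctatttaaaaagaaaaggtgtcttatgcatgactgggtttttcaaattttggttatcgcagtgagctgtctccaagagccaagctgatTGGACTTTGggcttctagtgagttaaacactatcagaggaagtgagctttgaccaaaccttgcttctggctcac

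The match begins 71 bases before the start in Cps1 and 74 bases before it in Kmo. Both strands of the promoters of 29 members were searched; Arg1, Gpt, Hal and Amdhd1 had no entry in the table. CAAAGTCCA stood in 2 of 29 (6.9%), Cps1 and Kmo, against 0.33% of 27457 promoters of the same length. The TATA box letters TATAAA stood in 5 of 29 (17.2%; Aldh4a1, Ass1, Bhmt, Ftcd and Tdo2) against 13.09%. The C/EBP letters TTGCNNAA stood in 3 of 29 (10.3%; Aass, Hgd and Kynu) against 9.2%, and the cAMP response element TGACGTCA in 0 of 29 against 1.7%. These matches describe the letters of the windows and show no binding. The 2 genes with the shared element had different values: Cps1 was level across the groups, while Kmo was below every normal library in all 6 cirrhotic livers.

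Levels per length differed widely among the members. Bhmt, which remethylates homocysteine with betaine, was the most abundant, at a mean of 1986 RPKM over the 9 libraries. Hpd, the second enzyme of tyrosine breakdown, followed at 1158 RPKM and the urea cycle enzyme Ass1 at 861 RPKM. The lowest were Nags, which makes the activator of Cps1, at 19.1 RPKM, and the histidine enzyme Amdhd1 at 23.6 RPKM. The highest library exceeded the lowest by a factor of 1.16 for Fah, the last enzyme of tyrosine breakdown, and by 5.98 for the alanine aminotransferase gene Gpt. Together the members made up 1.71, 2 and 1.82% of all RPKM in the normal libraries, 1.63, 1.49 and 1.40% in the PBS libraries, and 1.68, 1.52 and 1.69% in the HepLPC libraries. The PBS and normal shares did not overlap, but the summed RPKM of the members did, at 10200 in PBS library 1 and 9844 in normal library 1. The share of PBS library 1 was lowered by its larger total, 624322 RPKM against 576572 to 593580 RPKM in the normal libraries. The third PBS library was the lowest of the 9 for 14 members and the second for 8, whereas PBS library 1 was the highest for 7 and the lowest for 1.

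**Figure D1:**
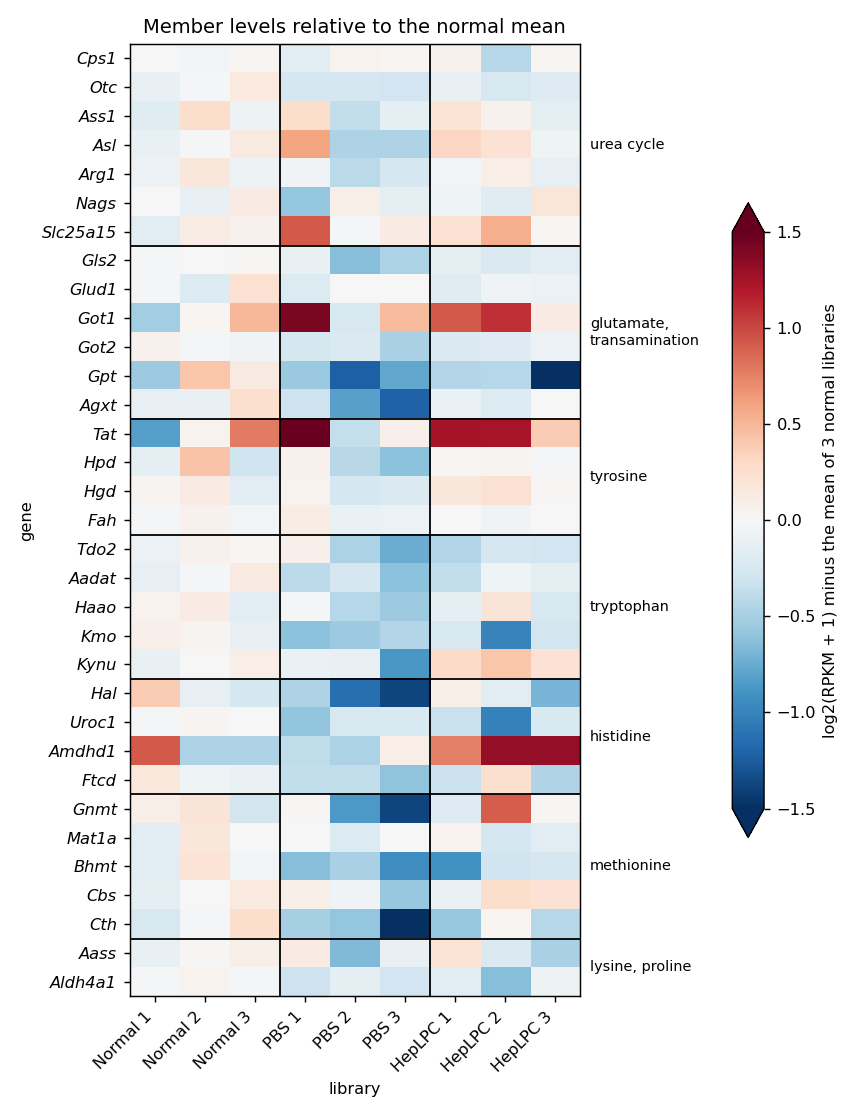
Level of each of the 33 members (rows, in 7 pathway blocks) in each library (columns), as log2(RPKM + 1) minus the mean of the 3 normal libraries; the colour scale ends at 1.5 either way. PBS libraries 2 and 3 are mostly blue, with medians of -0.36 and -0.44, while PBS library 1 (median -0.11) is red for Tat, Got1, Slc25a15 and Asl.

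PBS against normal livers asks how these pathways stand in cirrhosis. Most members were at lower values in the PBS livers, by modest amounts, and 1 passed the test. Agxt was called lower, by 0.78 on the log2 scale; 0 members were called higher. In the methionine, tryptophan, histidine and transamination groups the medians lay between -0.69 and -0.36, whereas the urea cycle and tyrosine groups had medians near 0. Over the whole table, 0.944% of the 11124 genes were called lower and 10.4% higher. The fold change was negative for 30 of 33 members and for 2659 of 11124 genes, with medians of -0.27 and 0.18. Among the 1126 genes at a mean of 50 RPKM or more, where most members lie, 555 were negative and the median was 0.01. At an unadjusted p under 0.05, 9 of 33 members were lower and 0 higher. By the same cut, 363 of the 11124 genes were lower and 2679 higher. Among the 1126 genes at 50 RPKM or more, 115 were lower and 172 higher. All 3 PBS libraries lay below all 3 normal libraries for 13 of 33 members (background 4.92%) and above them for 0 (background 32.7%). Of the 1126 genes at 50 RPKM or more, 185 lay below in this way and 269 above.

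The calls depended on PBS library 1 and HepLPC library 2. Without both, limma called 10 members lower and 0 higher, with 2.45% of all genes called lower: Asl, Gls2, Agxt, Tdo2, Haao, Kmo, Hal, Ftcd, Gnmt and Cth, from -0.46 (Asl) to -1.25 (Hal). Each library's dependence on gene length was then removed by a loess curve, an alternative chosen after seeing the data that also centres each library. In that setting 13 members were called lower, with 4.55% of all genes called lower. The 13 were Otc, Arg1, Gls2, Got2, Agxt, Aadat, Kmo, Hal, Uroc1, Ftcd, Bhmt, Cth and Aldh4a1.

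**Figure D2:**
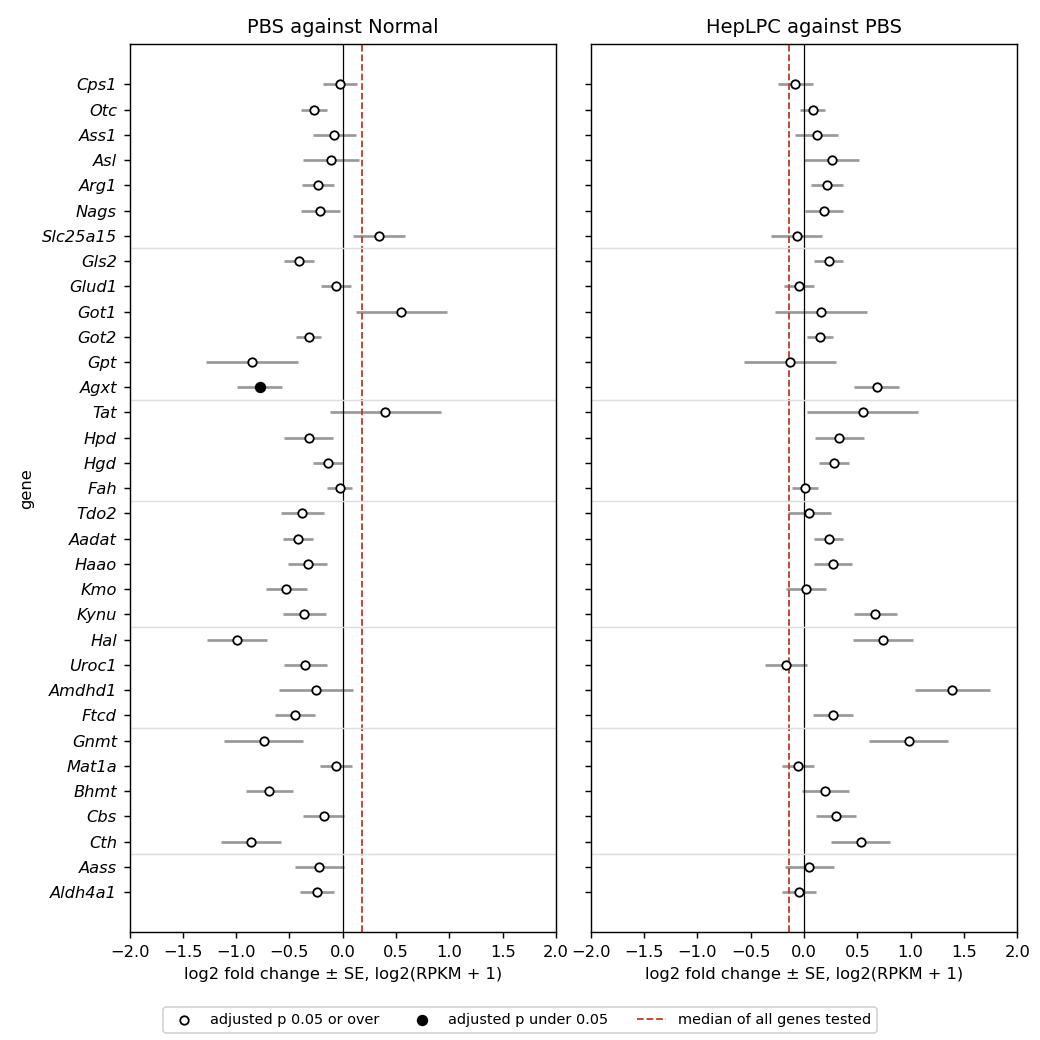
Log2 fold change of each member with its standard error in PBS against normal livers (left) and HepLPC against PBS livers (right), n = 3 per group; filled points passed the test and the dashed line is the median of all genes tested (0.18 and -0.14). Agxt on the left is the single filled point, and 30 members lie left of 0 there while 26 lie right of 0 in the other panel; both panels use the same PBS libraries.

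Agxt encodes the enzyme that converts glyoxylate to glycine at the expense of alanine and so prevents oxalate formation. It stood at 35.1, 35.3 and 45.3 RPKM in normal livers, 30.7, 21.3 and 15.9 RPKM in PBS livers, and 35.7, 33 and 38.1 RPKM in HepLPC livers. Every PBS library was below every library of both other groups, and PBS library 1 was the nearest to them. The PBS mean was 22.6 ± 7.49 RPKM (SD, n = 3) against 38.6 ± 5.83 RPKM in normal livers, a log2 fold change of -0.78 (SE 0.21, limma adjusted p = 0.0459). The call is close to the threshold. It held in 9 of 20 alternative settings, with adjusted p from 0.00674 to 0.153. It was lost when any one normal library, PBS library 2 or 3, or HepLPC library 1 or 3 was left out, and kept without PBS library 1 (-1.02) or HepLPC library 2 (-0.78).

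Hal, which removes the amino group of histidine in the first step of its breakdown, had the lowest fold change of the members. Its levels were 109, 76.8 and 69.3 RPKM in normal, 60.2, 37.6 and 31.5 RPKM in PBS, and 88.8, 74.5 and 51.2 RPKM in HepLPC livers. PBS and normal libraries did not overlap, and the HepLPC libraries overlapped both. The log2 fold change of PBS against normal was -0.99 (SE 0.28, limma adjusted p = 0.0531), which missed the threshold. It passed in 7 of 20 alternatives, among them those without PBS library 1 (-1.25), HepLPC library 2 or HepLPC library 3. Uroc1, the second enzyme, and Ftcd, which passes the last carbon to the folate pool, were below all normal libraries in all 3 PBS libraries, at -0.35 and -0.45. Amdhd1, the step between them, overlapped at -0.25. The group median was -0.42 in each of the 3 PBS libraries relative to the normal mean.

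Cth, which releases cysteine from cystathionine, stood at 356, 412 and 504 RPKM in normal, 298, 282 and 148 RPKM in PBS, and 282, 429.9 and 312 RPKM in HepLPC livers. Its log2 fold change of PBS against normal was -0.86 (SE 0.28, limma adjusted p = 0.083). The groups did not overlap, although the third PBS library accounted for the lowest value. Bhmt, chosen for its values here after they were seen, had 2252, 2916 and 2445 RPKM in normal, 1614, 1806 and 1322 RPKM in PBS, and 1349, 2055 and 2116 RPKM in HepLPC livers. All 6 libraries of cirrhotic rats were below all 3 normal libraries, with -0.69 (SE 0.22, limma adjusted p = 0.0765) for PBS against normal. Bhmt passed the test in 3 of the 20 alternatives, among them that without HepLPC library 1.

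Gnmt, which consumes S-adenosylmethionine by methylating glycine, varied more within its groups. It stood at 43.3, 46.5 and 33.4 RPKM in normal, 41.3, 21.9 and 15.1 RPKM in PBS, and 35.4, 77.3 and 41.3 RPKM in HepLPC livers. PBS library 1 lay within the normal range, so the groups overlapped (-0.74, SE 0.37, limma adjusted p = 0.235). Gnmt is the shortest of the members, at 988 bases, and its highest value was in HepLPC library 2, one of the libraries in which short genes ran high. Mat1a, the liver enzyme that makes S-adenosylmethionine, differed little. It stood at 688, 872 and 780.1 RPKM in normal, 780.2, 675 and 778 RPKM in PBS, and 803, 645 and 691 RPKM in HepLPC livers (-0.06, SE 0.15, for PBS against normal). Cbs, which condenses homocysteine with serine, was at -0.18 in that comparison. The median of the 5 methionine genes relative to the normal mean was 0.01, -0.48 and -0.93 in PBS libraries 1, 2 and 3.

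**Figure D3:**
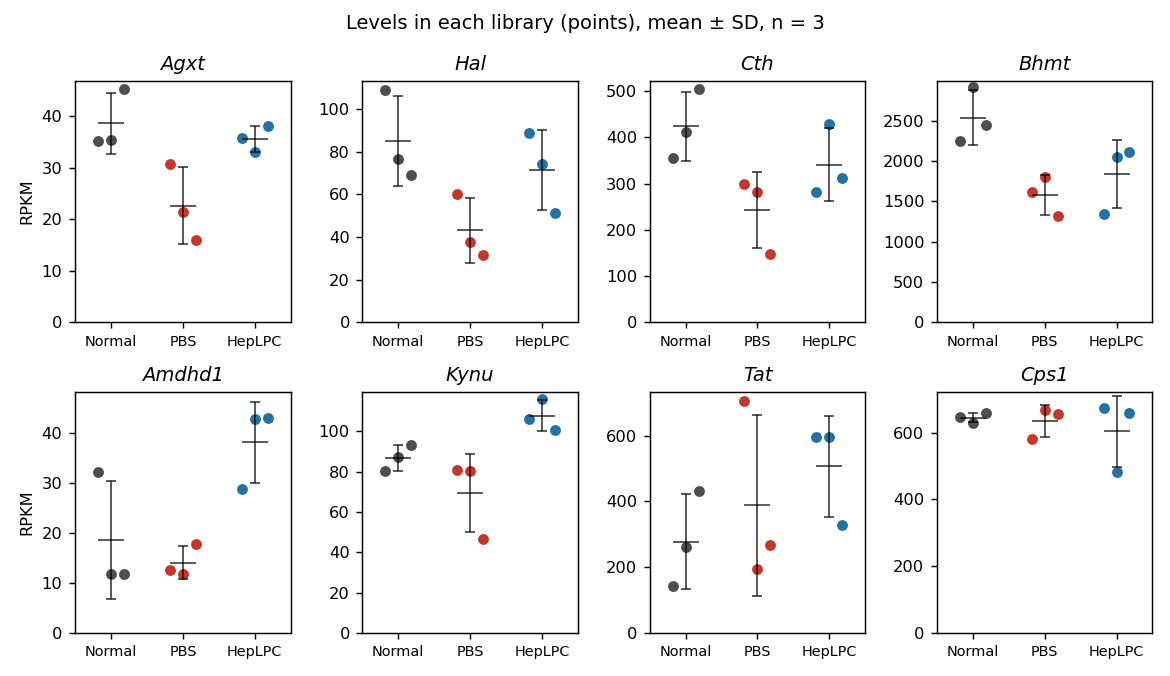
RPKM of 8 members in each library (points), with the group mean and SD (bars, n = 3), on linear axes starting at 0. Agxt, Hal, Cth and Bhmt show PBS points below all normal points, Amdhd1 and Kynu show HepLPC points above all PBS points, Tat is scattered within every group and Cps1 lies between 481 and 672 RPKM throughout.

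The urea cycle itself had, with tyrosine breakdown, the group medians nearest 0, at -0.11 and -0.09, against 0.18 over all genes tested. Cps1, the mitochondrial entry enzyme that fixes ammonia, had 648, 629 and 658 RPKM in normal, 579.8, 667 and 656 RPKM in PBS, and 672, 481 and 659 RPKM in HepLPC livers. The groups overlapped, with a log2 fold change of -0.03 (SE 0.16) for PBS against normal. The low values were in PBS library 1 and HepLPC library 2, and Cps1 is among the longest members, at 5887 bases. Otc, which makes citrulline, was the one cycle gene whose groups did not overlap: 335, 355 and 403 RPKM in normal against 306, 302 and 298 RPKM in PBS livers (-0.27, SE 0.12, limma adjusted p = 0.191). The remaining enzymes Ass1, Asl, Arg1 and Nags lay between -0.23 and -0.08, and Slc25a15, the mitochondrial ornithine carrier, was at 0.34. Slc25a15 and Asl owed their highest values to PBS library 1, with 109 and 150.4 RPKM against 56.5 to 62.8 and 71.7 to 71.9 RPKM in the other PBS libraries. Slc25a15 is the longest member, at 7407 bases, so it went against the length pattern that Cps1 followed. Among the HepLPC libraries it was highest in HepLPC library 2, at 84.2 RPKM. For PBS against normal, Otc, Arg1 and Asl were each called lower in 1 of 20 alternatives. Otc (-0.52, limma adjusted p = 0.0241) and Arg1 (-0.49, adjusted p = 0.0403) were called under loess. Asl (-0.46, adjusted p = 0.0421) was called without PBS library 1 and HepLPC library 2. Cps1, Ass1, Nags and Slc25a15 were called in 0 of the 20.

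Among the genes of glutamine, glutamate and transamination, Gls2, the liver glutaminase that feeds ammonia to the cycle, had 68.8, 70.6 and 70.7 RPKM in normal, 64.7, 44.8 and 50.1 RPKM in PBS, and 63.8, 59.9 and 62.4 RPKM in HepLPC livers. Both cirrhotic groups were below every normal library (PBS against normal -0.41, SE 0.14, limma adjusted p = 0.0965). Gpt had 39.4, 77.8 and 63.9 RPKM in normal, 39.1, 24.4 and 33.4 RPKM in PBS, and 42.7, 42.9 and 13.0 RPKM in HepLPC livers. Its PBS and normal libraries all but touched, and the value of -0.85 had an SE of 0.43 and a limma adjusted p of 0.241. The mitochondrial aspartate aminotransferase gene Got2 did not overlap between PBS and normal (-0.32), while the cytosolic Got1 was at 0.55 (SE 0.43) with its highest value, 146 RPKM, in PBS library 1. Glud1, glutamate dehydrogenase, was at -0.06.

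In tryptophan breakdown all 5 genes had negative fold changes in PBS against normal livers, between -0.53 and -0.33. Tdo2, the first enzyme, had 595, 662 and 646 RPKM in normal, 667, 457 and 379 RPKM in PBS, and 466, 531 and 521 RPKM in HepLPC livers. PBS library 1 exceeded all the normal libraries, so the groups overlapped (-0.38, SE 0.20, limma adjusted p = 0.252). Kmo, which hydroxylates kynurenine, had 59.8, 58.3 and 52.0 RPKM in normal and 36.7, 38.5 and 41.4 RPKM in PBS livers, with no overlap (-0.53, SE 0.19, limma adjusted p = 0.113). Its HepLPC values were 47.6, 27.7 and 46.5 RPKM, lowest in HepLPC library 2. Aadat, an aminotransferase acting on kynurenine and aminoadipate, was at -0.42 with no overlap, and the dioxygenase gene Haao at -0.33 with overlap.

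Tyrosine breakdown was dominated by the spread of its first enzyme. Tat had 141, 261 and 431 RPKM in normal, 705, 196 and 266 RPKM in PBS, and 597, 596 and 328 RPKM in HepLPC livers. The range within normal livers was wider than the differences between the group means of 278, 389 and 507 RPKM, and the SE of each contrast was 0.52. The gluconeogenic gene G6pc comes from a list of 13 hepatocyte genes that respond to feeding and hormones, and was chosen after its values were seen. It had 328 RPKM in PBS library 1 and 365 RPKM in HepLPC library 2, against 44.7 to 201 RPKM in the other 7 libraries. Tat, unlike G6pc, was as high in HepLPC library 1. The median of the list relative to the normal mean was -0.83, -0.67 and -0.95 in PBS libraries 1, 2 and 3. It was -0.05, -0.91 and -0.33 in HepLPC libraries 1, 2 and 3, so G6pc did not stand for its list. Hpd, Hgd and Fah, the later steps to fumarate and acetoacetate, were at -0.32, -0.14 and -0.03, with overlap between groups. In lysine and proline breakdown, Aass, the first lysine enzyme, had 62.1, 67.6 and 71.4 RPKM in normal, 73.1, 42.0 and 61.7 RPKM in PBS, and 77.5, 57.3 and 47.5 RPKM in HepLPC livers (-0.22, SE 0.23). Aldh4a1, which oxidises the proline product to glutamate, was at -0.24 with PBS below normal in all libraries.

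**Figure D4:**
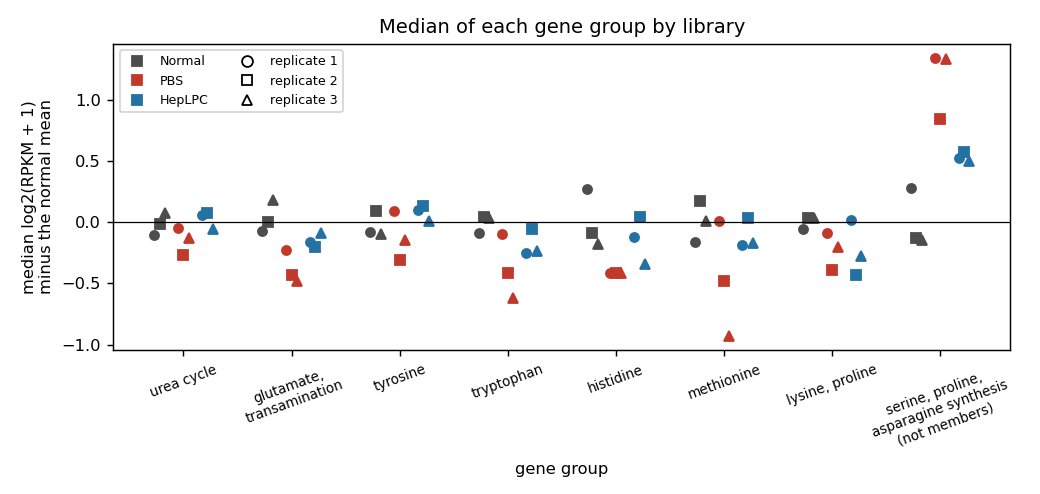
Median log2(RPKM + 1) of the genes of each group minus their normal mean, for each of the 9 libraries (colour for the treatment group, marker shape for the replicate number). The histidine median is -0.42 in all 3 PBS libraries, the methionine median spreads from 0.01 to -0.93, and the synthesis genes, which are not members, lie at 0.84 to 1.34 in the PBS libraries.

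HepLPC against PBS livers asks whether the injected cells shifted these pathways in cirrhosis. No member was called, and most stood at somewhat higher values in the HepLPC livers. The counts were 0 higher and 0 lower by limma, against 0.135% of all genes tested called higher and 2.93% lower. At an unadjusted p under 0.05, 5 members were higher and 0 lower, against 234 and 1558 of the 11124 genes. Among the 1126 genes at a mean of 50 RPKM or more, 73 were higher and 84 lower by that cut. The fold change was positive for 26 of 33 members against 2905 of 11124 genes, with medians of 0.20 and -0.14, and against 599 of the 1126 genes at 50 RPKM or more, with a median of 0.02. All HepLPC libraries exceeded all PBS libraries for 4 members, Otc, Agxt, Kynu and Amdhd1 (background 2.79%), and none lay below them (background 15.6%). Of the 1126 genes at 50 RPKM or more, 88 lay above in this way and 103 below. By group the medians ran from 0.00 for the lysine and proline pair to 0.50 for histidine breakdown. This contrast shares its 3 PBS libraries with the one above, so opposite signs in both are not separate evidence.

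Amdhd1, which opens the imidazolone ring in histidine breakdown, had the largest difference. It stood at 12.5, 11.7 and 17.8 RPKM in PBS and 28.8, 42.7 and 43.0 RPKM in HepLPC livers. The normal libraries were at 32.2, 11.8 and 11.8 RPKM, so that 1 of them reached the HepLPC range and 2 sat at the PBS level. HepLPC against PBS gave 1.39 (SE 0.35, limma adjusted p = 0.0738), a ratio of means of 2.73. The difference passed the test in 2 of 20 alternatives, with limma adjusted p from 0.0185 to 0.196 over the 20. The 2 were without normal library 1 (adjusted p = 0.0185) and with only the 2 groups compared (adjusted p = 0.0482). Without PBS library 1 and HepLPC library 2 together, Amdhd1 was at 1.23 (SE 0.47, adjusted p = 0.179) and was not called. Kynu, kynureninase, was chosen after its values were seen. It had 80.1, 87.3 and 93.1 RPKM in normal, 80.7, 80.4 and 46.8 RPKM in PBS, and 106, 116 and 101 RPKM in HepLPC livers. The HepLPC libraries exceeded all 6 others (HepLPC against PBS 0.67, SE 0.20, limma adjusted p = 0.123).

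Agxt stood at 0.68 (SE 0.21, limma adjusted p = 0.142) in HepLPC against PBS livers. It passed the test without PBS library 1 (0.91, adjusted p = 0.0298). Without PBS library 1 and HepLPC library 2 together, Agxt (0.97, adjusted p = 0.0346) and Gnmt (1.03, adjusted p = 0.0477) were called higher by limma, 2 of 33 members, with 0.234% of all genes called higher. With all libraries, Gnmt was at 0.98 (SE 0.37, adjusted p = 0.226) and Hal at 0.74 (SE 0.28, adjusted p = 0.239). Bhmt at 0.20, Tdo2 at 0.05, Mat1a at -0.06, Cps1 at -0.08 and Gpt at -0.13 differed by no more than their SE. Cth was at 0.53 (SE 0.28).

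HepLPC against normal livers completes the 3 contrasts. None of the 33 members was called in either direction, against 0.036% of genes called lower and 0.0449% higher. At an unadjusted p under 0.05, 3 members were lower and 1 higher, against 220 and 816 of the 11124 genes. Among the 1126 genes at a mean of 50 RPKM or more, 30 were lower and 41 higher by that cut. The fold change was negative for 22 members and positive for 11, with a median of -0.11 against 0.05 over all genes. Gls2, Got2, Tdo2, Kmo, Uroc1, Bhmt and Aldh4a1 lay below all normal libraries in all HepLPC libraries, 7 of 33 against a background of 3.51%. Kynu alone lay above them (background 12.3%). Of the 1126 genes at a mean of 50 RPKM or more, 69 lay below all normal libraries in this way and 79 above. Agxt was at -0.10 (SE 0.21), Hal at -0.26 (SE 0.28) and Cth at -0.32 (SE 0.28). The largest values were Amdhd1 at 1.13 (SE 0.35, limma adjusted p = 0.359), Gpt at -0.98 (SE 0.43, adjusted p = 0.534) and Tat at 0.95 (SE 0.52, adjusted p = 0.633).

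Related genes outside the membership were read from the same fit. Of 6 tested genes for the synthesis of serine, proline and asparagine, 4 were called higher in PBS than in normal livers (background 10.4%). None was called lower (background 0.944%), and the median was 1.17. Phgdh, the first enzyme of serine synthesis, rose by 1.65 (SE 0.22, limma adjusted p = 0.00188), from 0.27 to 0.617 RPKM in normal to 2.41 to 4.91 RPKM in PBS livers. The proline enzyme gene Pycr1 rose by 1.63 and was the 1 gene of this list called in HepLPC against PBS livers, where it fell by 1.30 (limma adjusted p = 0.00802). Psat1 of serine synthesis rose by 1.51 and asparagine synthetase, Asns, by 0.83. These 4 genes were at 5.1 RPKM or less in every library, far below the members, and 6 duct and 4 stellate cell markers rose in the same comparison; their part in it was not tested. Aldh18a1 and Bcat1 did not pass the filter.

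Of 9 tested further genes of ammonia handling, 1 was called higher in PBS than in normal livers: Rhbg, an ammonia channel, from 0.871, 0.93 and 1.37 RPKM to 12.9, 6.88 and 10.6 RPKM (2.41, SE 0.26, limma adjusted p = 0.000664). It was also called higher in HepLPC than in normal livers (1.86, adjusted p = 0.0464). Of 14 genes of serine, glycine, threonine and glyoxylate, 1 fell in PBS livers, the glycine cleavage gene Gldc, by 0.97 (SE 0.18, limma adjusted p = 0.00985). Of 18 branched-chain genes, the valine enzyme gene Hibch was called higher (0.49, adjusted p = 0.0293). Of 17 further methionine, sulphur and one-carbon genes, the folate enzyme gene Aldh1l1 was called higher (0.78, adjusted p = 0.0489). Over all genes tested, 10.4% were called higher and 0.944% lower in PBS against normal livers. A single gene called higher in lists of 9, 17 or 18 is near or below that share. None of these 4 lists had a gene called in HepLPC against PBS livers.

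Of 12 amino acid transporters, 3 were called higher in PBS than in normal livers (background 10.4%) and 1 lower (background 0.944%). Slc1a4 (1.03), Slc1a2 (0.94) and Slc7a5 (0.89) were the higher genes, at 3.71 RPKM or less in every library. Slc38a4, an abundant hepatic carrier of neutral amino acids, had 239 to 243 RPKM in normal and 138 to 149 RPKM in PBS livers and fell by 0.74 (SE 0.15, limma adjusted p = 0.0151). Of 11 further aromatic genes, 6 of proline and lysine breakdown and 11 regulators, 0 were called in either direction in PBS against normal livers. Pcbd1, a gene of tetrahydrobiopterin recycling, was at -0.09, Dhtkd1 of lysine breakdown at -0.37 and Hoga1 of hydroxyproline breakdown at -0.19. The regulators with the highest levels, Cebpa and Creb3l3, were at -0.32 and -0.03. Among the feeding and hormone responsive genes, the hormone gene Fgf21 (-1.24) and the pyruvate kinase gene Pklr (-0.93) were called lower and 0 of the list were called higher.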

How the data were processed

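Whole liver RNA-seq of 9 rat samples (3 normal, 3 PBS, 3 HepLPC) was analysed. Titles of the samples gave group and replicate number. The authors deposited 1 RPKM value per gene and library, as named in the file headers. The submitters' processing notes name HISAT2, StringTie and the human build hg19 without roles, while the rows carry rat symbols, so the build and annotation behind the RPKM are uncertain and gene coordinates are given only for RefSeq promoters of GRCr8. Whole reads were recovered from the RPKM steps within 0.01 read for 20957 of 20959 genes above 0 in 3 or more libraries (99.99%) and gave the depths.

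The test was limma 3.58.1 in R 4.3.3 (lmFit, eBayes with trend, 2-sided) on log2(RPKM + 1), a scale that understates changes of low genes, with all 9 libraries in 1 model (6 residual degrees of freedom). Read recovery and the test were checked on simulated data. Members and lists were chosen with earlier results of these data known; 3 of 197 listed symbols were matched through a synonym. Values in every library are given for members that were called, were among the 3 largest differences of a comparison or catalyse the first step of a pathway. From the other pathway lists, at most 4 called genes were named, otherwise the 2 of highest level; some genes that this rule names are not reported here. Any other gene named was chosen after its values were seen. Alternatives were other pseudocounts, filters, scalings and fits, each library left out in turn, and a test on the recovered reads.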

Additional observations from a re-analysis of the deposited data

How the results depend on the processing

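In the 20 alternatives, no member value that was called changed its sign; values with no call on either side changed sign in 20, 39 and 23 of 660 cases for PBS against normal, HepLPC against PBS and HepLPC against normal. For PBS against normal, the count of members called lower, 1 as reported, was 0 with no filter, 0 with a filter of 5 RPKM, 3 after rescaling by the median of ratios, 3 with only the 2 groups compared, 10 without PBS library 1 and HepLPC library 2, and 13 with length correction by loess. Leaving out 1 library at a time gave 0 to 4. It was 4 without PBS library 1 or HepLPC library 2, and 0 without any one normal library, PBS library 2 or PBS library 3. The median member fold change moved from -0.27 to -0.51 under the median of ratios and to -0.52 under loess. For HepLPC against PBS, the count called higher, 0 as reported, was 1 with only the 2 groups compared (Amdhd1) and 2 without PBS library 1 and HepLPC library 2. Leaving out 1 library gave 0 to 1, with 1 without normal library 1 (Amdhd1) or PBS library 1 (Agxt). The median moved from 0.20 to 0.39 under the median of ratios and to 0.35 under loess. For HepLPC against normal, leaving out 1 library gave medians of -0.13 to -0.04. The cause of these shifts was not tested.

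Rescaling by the median of ratios moved the all-gene median of PBS against normal from 0.18 to -0.01, quantile normalization to -0.04 and loess to -0.03. The share of lower genes among those called went from 8.3% to 27.6%, 31.1% and 43.5%, with 782, 714 and 1163 genes called against 1262. The test on recovered reads called 1205 genes. Same-number correlations of deviations from the group means ran from -0.412 to 0.31. They cannot decide whether replicate numbers pair the samples, because libraries of different number were not compared and the gene length pattern enters the deviations. With a replicate block, 787 genes were called in PBS against normal, and 1 member, Hal (limma adjusted p = 0.00785) in place of Agxt (adjusted p = 0.0927); median fold changes stayed at -0.27, 0.20 and -0.11, with 0 members called in the other 2 comparisons. With 3 libraries a group, the SE of a member's fold change was 0.12 to 0.52. Hal, at -0.99 with an SE of 0.28 in PBS against normal, was not called, so a difference had to be several times its SE to pass.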
